A study of Mus musculus with 6 samples.

Results

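The skeletal muscle genes described here are 38 genes of the sarcomere, the calcium release system and the energy supply of striated muscle, chosen by gene symbol from the 41786 symbols counted in endometriosis-like lesions of mice. All 38 were found, and all 38 passed the filter on low counts. The lesions came from uterus of GFP-positive C57BL/6 donors aged 6 weeks, sutured to the peritoneal wall of wild-type female recipients aged 8 weeks. After 3 days the recipients received, daily for 3 weeks, either vehicle (3 libraries) or niclosamide at 200 mg/kg body weight by mouth (3 libraries). Vehicle 1 was made from pooled RNA of 4 mice and each other library from 1 mouse, so the SD and the p-values measure the spread of 1 pooled value and 5 single animals. At necropsy in diestrus, the tissue derived from the uterus was parted from that of the recipient. The 6 libraries held 27797121 to 34797000 counted reads.

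Skeletal muscle fibres shorten when myosin heads of the thick filament pull on actin of the thin filament. Calcium released from the sarcoplasmic reticulum starts this by binding troponin C, and creatine kinase, glycogen breakdown and myoglobin supply the energy and oxygen. Slow and fast fibres use different isoforms of myosin, troponin and the calcium pump. The wall of the abdomen is made largely of such fibres, whereas the muscle of the uterus is smooth and uses other myosin and actin genes. The counted symbols do not tell donor from recipient RNA, so the source of the muscle transcripts was not measured. In such bulk samples fewer muscle fibres and less muscle RNA per fibre cannot be told apart.

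The upstream sequences below show the members with the highest level per length in their roles (*Acta1*, *Ckm*) and 4 neighbouring myosin heavy chain genes whose levels are compared later. The myosin genes stand side by side on the plus strand of mouse chromosome 11, with *Myh2* at 67171027 to 67197517, *Myh1* at 67200114 to 67224575, *Myh4* at 67237812 to 67260447 and *Myh8* at 67277124 to 67308634 (GRCm38.p3, per the files, from the first to the last annotated exon). *Acta1* lies on the minus strand of chromosome 8 (123891758 to 123894775) and *Ckm* on the plus strand of chromosome 7 (19411094 to 19421583). Each line holds the 150 bases before the annotated start, 5′ to 3′ on the gene's strand, from RefSeq on GRCm38.p6. Capitals mark matches to the E-box CANNTG, the CArG box or the MEF2 site, sequences that are bound by MyoD-type factors, serum response factor and MEF2 factors in muscle genes.
Acta1, chr8:123894776-123894925, minus strand: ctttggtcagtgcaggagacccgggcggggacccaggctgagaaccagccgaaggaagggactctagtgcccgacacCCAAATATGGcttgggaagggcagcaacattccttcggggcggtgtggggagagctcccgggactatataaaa
Ckm, chr7:19410944-19411093, plus strand: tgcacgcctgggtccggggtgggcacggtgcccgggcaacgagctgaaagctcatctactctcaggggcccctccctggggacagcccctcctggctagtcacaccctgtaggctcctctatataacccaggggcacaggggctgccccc
Myh2, chr11:67170877-67171026, plus strand: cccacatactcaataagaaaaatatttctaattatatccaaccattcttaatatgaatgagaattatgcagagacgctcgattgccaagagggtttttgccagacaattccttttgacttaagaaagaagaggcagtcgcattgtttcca
Myh1, chr11:67199952-67200101, plus strand: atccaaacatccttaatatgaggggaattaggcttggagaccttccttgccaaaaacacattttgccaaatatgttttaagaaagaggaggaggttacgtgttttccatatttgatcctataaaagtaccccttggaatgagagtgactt
Myh4, chr11:67237662-67237811, plus strand: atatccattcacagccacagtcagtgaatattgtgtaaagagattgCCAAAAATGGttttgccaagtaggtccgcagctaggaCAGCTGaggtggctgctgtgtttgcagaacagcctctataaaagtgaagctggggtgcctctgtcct
Myh8, chr11:67276974-67277123, plus strand: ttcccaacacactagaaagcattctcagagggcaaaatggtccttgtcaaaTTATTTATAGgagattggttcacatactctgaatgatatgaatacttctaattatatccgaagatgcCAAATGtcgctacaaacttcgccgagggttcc

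In these stretches *Acta1* held 1 CArG box, *Myh4* 1 CArG box and 1 E-box, and *Myh8* 1 MEF2 site and 1 E-box. The table had 32 upstream windows for 27 of the 38 members, some with several starts. Over the 250 bases before each start, CAGCTG, an E-box form that reads the same on both strands, occurred in 14 of 32 member windows (43.8%) and in 13.0% of all 32851 windows. The wider E-box CANNTG, which includes CAGCTG, occurred in 27 of the 32 member windows (84.4%) and 66.2% of all windows. The MEF2 site stood in 6 of the 32 (18.8%, against 2.92% of all) and the CArG box in 2 (6.25%, against 1.47%). The E-box, the CArG box and the MEF2 site read the same on both strands, so 1 search covered both. A match describes letters only and shows no binding.

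Skeletal muscle transcripts differed far more between single libraries than between the group means. The 38 genes took 0.751%, 1.98% and 2.02% of all counts with vehicle, against 5.38%, 0.149% and 2.004% with niclosamide, here and below in the order of libraries 1, 2 and 3. Niclosamide 1 was the highest library and niclosamide 2 the lowest, and niclosamide 3 lay between vehicle 2 and vehicle 3. The groups thus overlapped, with means of 1.58% ± 0.722 (SD, n = 3) with vehicle and 2.51% ± 2.65 with niclosamide. Wilson 95% intervals, which cover counting error only, ran from 0.747% to 0.754% in vehicle 1 and from 0.147% to 0.150% in niclosamide 2, so counting error was small beside the gaps between libraries. In CPM (read counts scaled to a common library size with TMM factors), the summed level of niclosamide 1 was 36.9 times that of niclosamide 2.

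**Figure D1:**
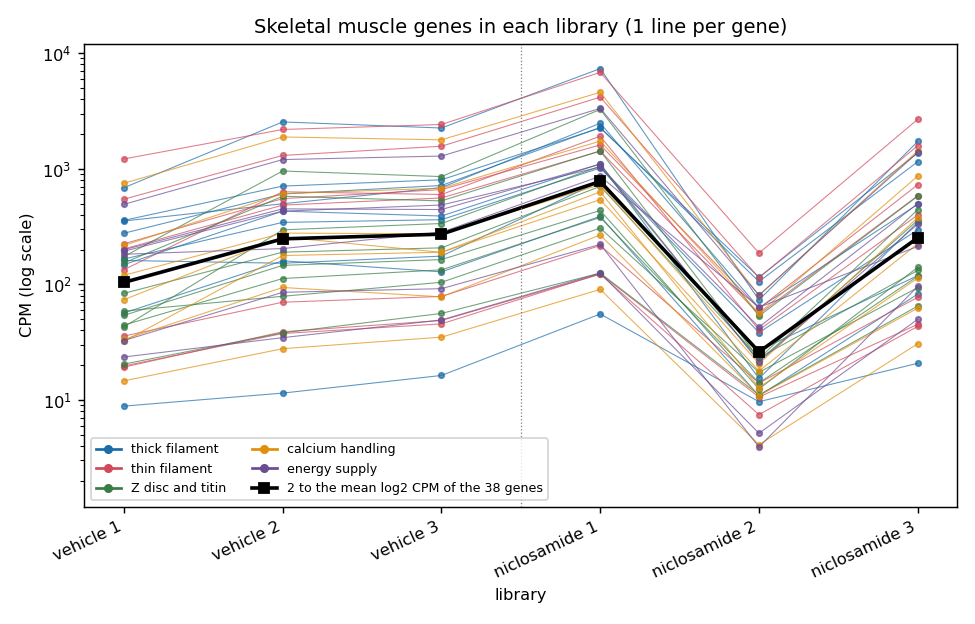
Level of each of the 38 skeletal muscle genes (vertical axis, CPM, log scale) in the 6 libraries (horizontal axis). Thin lines join the values of 1 gene and are coloured by role, and black squares give the mean of the 38 genes on the log scale. All 38 genes peak in niclosamide 1, and 37 have their lowest value in niclosamide 2.

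All 38 members were highest in niclosamide 1, and 37 were lowest in niclosamide 2. The exception was *Myh8*, lowest in vehicle 1. Over all 17364 genes tested, 24.9% were highest in niclosamide 1 and 8.01% were both highest there and lowest in niclosamide 2. Among the vehicle libraries the pool, vehicle 1, was the lowest in 37 members. The fold between niclosamide 1 and niclosamide 2 ran from 5.73 for *Myh8* to 100.2 for *Myh4*, with a median of 30.4. Niclosamide 1 exceeded niclosamide 2 by a log2 difference of at least 4 in 230 of the genes tested, of which 33 were members, and 29 genes differed as much the other way.

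No member passed the test of niclosamide against vehicle. By the quasi-likelihood test of edgeR, with Benjamini-Hochberg adjustment over 17364 genes and a threshold of 0.05, 0 of 38 members and 0% of all genes passed, and the members' adjusted p ran from 0.787 (*Myh8*) to 0.977 (*Pygm*). At an unadjusted p under 0.05 there were 0 members, against 6.92% of all genes, and the groups did not overlap in 0 members, against 12.3% of all genes (5.9% with niclosamide higher and 6.37% with niclosamide lower). DESeq2's Wald test with the same adjustment called 0 members, against 1.22% of all genes, and 1 member had an unadjusted p under 0.05 by DESeq2, against 8.19% of all genes. Fitted log2 fold changes (niclosamide over vehicle) were above 0 in all 38, from 0.41 ± 1.13 (SE) for *Pygm*, the muscle glycogen phosphorylase, to 1.23 ± 0.63 for *Myh8*, with a median of 0.74, while the median of all genes was 0.02 and 53.7% of them were above 0.

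The direction was not kept without niclosamide 1: then 3 members stayed above 0 and the median was -0.52. Without niclosamide 2 the median was 1.28, and each time there were 0 calls among members and 0 over all genes. Without vehicle 1, the pool, the median was 0.44. Without niclosamide 1 and niclosamide 2 it was 0.27 with 26 of 38 above 0, where the single niclosamide library left was assumed to vary like the vehicle libraries. The direction also turned where values were averaged on a log scale: the mean log2 CPM of the members was 7.58 ± 0.76 with vehicle and 7.43 ± 2.49 with niclosamide, and limma-voom gave a median log2 fold change of -0.16 with 11 members above 0. The square root of the fitted dispersion, a relative SD between replicates, had a median of 0.832 over the members and 0.269 over all genes.

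**Figure D2:**
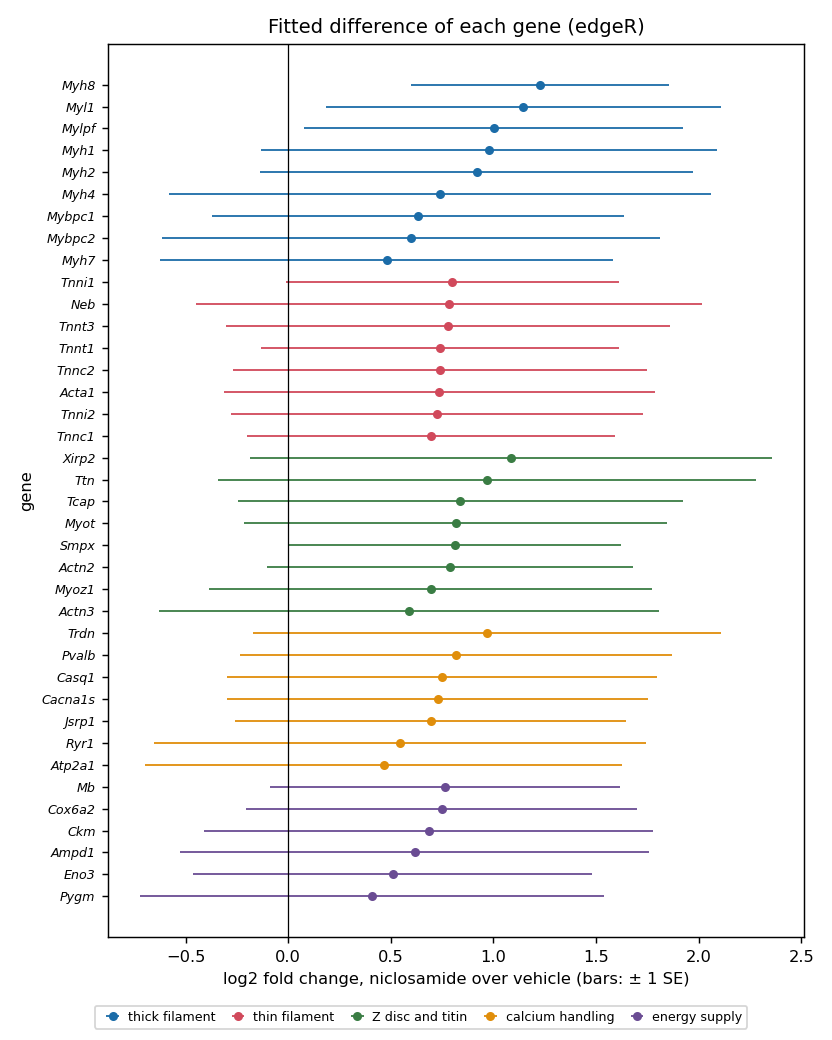
Log2 fold change of niclosamide over vehicle (horizontal axis) for each skeletal muscle gene (vertical axis), fitted by edgeR over 3 libraries a group, coloured by role, with bars of 1 SE. All 38 points lie above 0, from 0.41 to 1.23, and none passed the adjusted threshold.

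Of the 9 thick filament genes, *Myh4*, the heavy chain of the fastest, glycolytic type IIb fibres, had 686, 2542 and 2252 CPM with vehicle, against 7348, 73.3 and 1725 CPM with niclosamide. Its log2 fold change was 0.74 ± 1.32 (SE), and the niclosamide libraries lay on both sides of the vehicle range. *Mylpf*, the phosphorylatable light chain of fast fibres, had 358, 708 and 803 CPM with vehicle and 2253, 115 and 1370 with niclosamide. For *Myl1*, a light chain gene of fast fibres, the vehicle values were 277, 606 and 717 CPM and the niclosamide values 2279, 106 and 1151. In both light chain genes niclosamide 3 exceeded every vehicle library, unlike in *Myh4*. *Myl1* is annotated at 2 places (chromosome 1 and an alternate scaffold), so its reads may be undercounted, as may those of *Eno3*, the muscle enolase.

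Per kilobase of exon, *Acta1* on chromosome 8, the actin of skeletal thin filaments, had the highest mean level of all members, at 1644 CPM per kilobase over the 6 libraries. Its values were 1216, 2186 and 2415 CPM with vehicle, against 6818, 186 and 2679 CPM with niclosamide. *Tnnc2*, the calcium sensor of fast fibres, had 225, 552 and 661 CPM with vehicle and 1607, 62.0 and 728 with niclosamide, and *Tnnt3*, which ties troponin to tropomyosin, 546, 1304 and 1566 against 4162, 114 and 1586. In all 3 genes the libraries ranked niclosamide 1, niclosamide 3, vehicle 3, vehicle 2, vehicle 1 and niclosamide 2. The 8 thin filament genes had log2 fold changes of 0.70 to 0.80, with SE of 0.81 to 1.23.

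In the Z disc, which anchors the thin filaments, *Tcap* (telethonin, which caps titin) had 83.7, 190 and 207 CPM with vehicle, against 705, 23.2 and 132 CPM with niclosamide. *Actn3*, the alpha-actinin of fast fibres, had 153, 579 and 527 CPM with vehicle and 1428, 22.9 and 443 with niclosamide. *Myoz1*, a calcineurin-binding Z disc protein gene of fast fibres, had 54.0, 146 and 164 CPM with vehicle and 436, 12.5 and 141 with niclosamide. In these 3 genes niclosamide 3 lay between vehicle 1 and the other vehicle libraries. The 8 members of this role had a median fold of 32.7 between niclosamide 1 and niclosamide 2, from 11.3 for *Smpx* to 62.4 for *Actn3*. *Ttn* (titin, the giant spring of the sarcomere) had 174, 957 and 856 CPM with vehicle and 3261, 53.2 and 580 with niclosamide. *Xirp2*, which codes for an actin-binding protein, had 42.9, 296 and 336 CPM with vehicle and 1053, 21.8 and 359 with niclosamide. In both genes vehicle 1 was well below the other vehicle libraries, and niclosamide 3 was above them only in *Xirp2*.

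Of the 7 calcium handling genes, *Atp2a1*, the calcium pump of fast fibres (SERCA1), had 749, 1883 and 1779 CPM with vehicle, against 4588, 80.5 and 1427 CPM with niclosamide. *Pvalb*, the calcium buffer parvalbumin, had 217, 609 and 679 CPM with vehicle and 1735, 56.2 and 866 with niclosamide. *Casq1*, the calcium store protein of the reticulum, had 120, 278 and 273 CPM with vehicle and 729, 20.6 and 378 with niclosamide. Niclosamide 3 was thus above all vehicle libraries in *Pvalb* and *Casq1* and below vehicle 2 and 3 in *Atp2a1*. The channel genes *Ryr1* (the release channel) and *Cacna1s* (its voltage sensor) stayed below vehicle 2 and 3 in niclosamide 3 as well, at 113 and 62.3 CPM against 189 to 257 and 78.1 to 94.0 CPM. *Trdn*, triadin, which links the calcium store to the release channel, had 32.2, 178 and 190 CPM with vehicle and 540, 17.8 and 225 with niclosamide, so that its niclosamide 3 value exceeded all vehicle values. Over the role the median log2 fold change was 0.73.

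The 6 energy supply genes were all highest in niclosamide 1 and lowest in niclosamide 2. *Ckm*, muscle creatine kinase, had 493, 1201 and 1288 CPM with vehicle, against 3327, 80.7 and 1384 CPM with niclosamide. *Mb*, myoglobin, had 182, 204 and 283 CPM with vehicle and 861, 63.4 and 213 with niclosamide. *Pygm* had 199, 450 and 444 CPM with vehicle and 1097, 21.4 and 332 with niclosamide. Myoglobin, which is most abundant in oxidative fibres, spanned the narrowest range of the 3, with a fold of 13.6 between niclosamide 1 and niclosamide 2, against 51.3 for *Pygm*. *Ampd1*, the AMP deaminase of muscle, had the widest range of the role, with 32.7, 85.4 and 91.8 CPM with vehicle and 222, 3.93 and 96.1 with niclosamide. Their median log2 fold change was 0.65 over the 6 genes.

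Fast chains made up most of the myosin heavy chain signal in every library, and the slow share was highest in niclosamide 2, the library with the least muscle signal. Among the 4 adult myosin heavy chain genes, compared as counts per kilobase, *Myh7* (the slow, type I chain) took 4.49%, 4.76% and 3.95% with vehicle, against 3.52%, 6.25% and 3.40% with niclosamide. The means were 4.40% ± 0.415 (SD, n = 3) with vehicle and 4.39% ± 1.61 with niclosamide. Niclosamide 2 lay above the vehicle range and the other niclosamide libraries below it, and without niclosamide 2 the group means differed by -0.938 percentage points. The heavy chain genes are similar in sequence, and the counting was not set to include reads that align to several places.

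The shares of the fast chains also differed between libraries. *Myh4* took 54.6%, 75.8% and 69.4% with vehicle, against 66.9%, 42.2% and 71.3% with niclosamide. *Myh2*, of the oxidative type IIa fibres, took 12.7%, 4.51% and 5.37% with vehicle and 7.03%, 15.4% and 4.88% with niclosamide, and *Myh1* (type IIx) 28.2%, 14.9% and 21.3% against 22.6%, 36.2% and 20.4%. Niclosamide 2 and vehicle 1, the libraries with the least muscle signal, thus had the lowest *Myh4* and the highest *Myh2* and *Myh1* shares. Vehicle 1 is the pool of 4 mice. The part of muscle content or pooling in these shares was not tested.

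**Figure D3:**
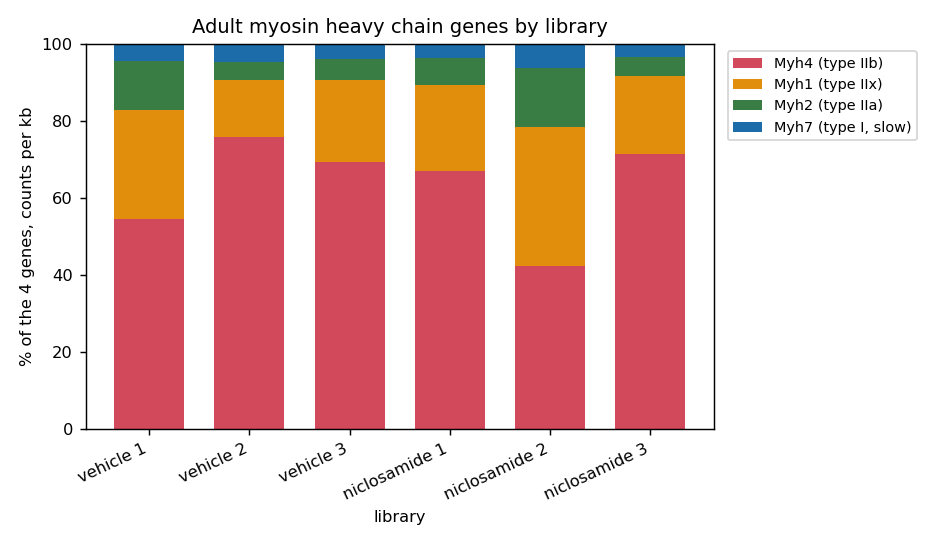
Share of each adult myosin heavy chain gene (vertical axis, percent of the summed counts per kilobase of the 4 genes) in each library (horizontal axis). *Myh4* is the largest share everywhere, at 42.2% in niclosamide 2 and 54.6% to 75.8% in the other libraries.

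Slow and fast partners of other proteins were compared in the same way, and each had its highest slow-type share in niclosamide 2. The slow troponin I gene *Tnni1* took 20.6% of the *Tnni1* and *Tnni2* signal per kilobase there, against 9.48% to 11.7% in the other libraries. *Tnnt1* took 17.9% of slow and fast skeletal troponin T, against 8.01% to 10.5%, and *Tnnc1*, which the heart also uses, 10.6% of troponin C, against 5.54% to 7.79%. Of myosin-binding protein C, *Mybpc1*, the slow isoform by name, took 74.8%, against 48.7% to 57.0%. These shares were far above the *Myh7* shares of 3.40% to 6.25%, so *Mybpc1* cannot be read as a measure of slow fibres alone. *Actn2*, the alpha-actinin present in all fibres, took 42.3% of the alpha-actinin pair against 11.6% to 27.0%. On the log2 scale per kilobase, the mean of 5 slow genes lay 1.75 below that of 12 fast genes in niclosamide 2 (a difference of -1.75) and differed by -2.85 to -2.50 in the other libraries. In this measure the groups differed by 0.15, beside an SD of 0.60 with niclosamide and of 0.071 with vehicle. With the troponin pairs only, the slow minus fast difference was -2.40 in niclosamide 2 and -3.62 to -3.19 in the other libraries. The slow troponin genes were low in niclosamide 2, at 14.0 CPM for *Tnnt1*, 10.6 for *Tnni1* and 7.48 for *Tnnc1*. Whether cells other than muscle fibres added to these values was not tested.

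The fold between niclosamide 1 and niclosamide 2 had a median of 16.4 (range 11.6 to 35.7) over the 5 slow genes and 33.7 (19.5 to 100.2) over the 12 fast genes. Of the slow genes, *Mybpc1* (26.5) and *Myh7* (35.7) lay within the range of the fast genes, and *Tnni1*, *Tnnt1* and *Tnnc1* lay below it. Within the fast genes the range was wide. *Myh4*, *Mybpc2* (fold 71.9), *Actn3* (62.4) and *Atp2a1* (57.0) were at the top, while the fast troponin genes *Tnni2* (25.7) and *Tnnc2* (25.9) and the light chain genes *Myl1* (21.6) and *Mylpf* (19.5) were at the bottom.

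*Myh8*, the myosin heavy chain of newborn and regenerating muscle, departed most from the other members. It had 8.86, 11.5 and 16.3 CPM with vehicle, against 55.5, 9.67 and 20.8 CPM with niclosamide. As a share of the 5 heavy chain genes per kilobase it was 5.18% in niclosamide 2 and 0.335% to 0.836% elsewhere. Its level in niclosamide 2 lay between those of vehicle 1 and vehicle 2, while the adult chains were at their lowest there. *Myh3*, the embryonic chain and no member, had 6.38, 5.99 and 10.03 CPM with vehicle and 29.9, 6.24 and 11.9 with niclosamide.

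The members varied closely together. The library mean of the members accounted for 93.6% of the variance of their log2 CPM over the 6 libraries, and for 77.9% without niclosamide 1 and niclosamide 2. The same share was 86.0% over 48 other striated muscle genes, 80.4% over 10 uterine epithelium genes and 67.4% over 12 smooth muscle genes. These shares depended on single libraries. Without niclosamide 1 they were 90.6% over the members, 82.3% over the other striated muscle genes, 58.0% over the epithelium genes and 87.3% over the smooth muscle genes. After subtracting the members' mean, the SD of a member over the libraries had a median of 0.37 log2 units, against 1.67 before. With each list's own mean subtracted, it was 0.42 (1.48 before) for the other striated muscle genes. It was 0.38 (0.99 before) for the epithelium genes and 0.38 (0.95 before) for the smooth muscle genes. The spread around the pattern was thus similar in these lists, and the share was higher where levels differed more between libraries. *Myot* (0.12), *Tnni2* (0.12) and *Myoz1* (0.12) followed the common pattern most closely, and *Myh4* (0.68), *Xirp2* (0.68) and *Myh8* (1.06) least.

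**Figure D4:**
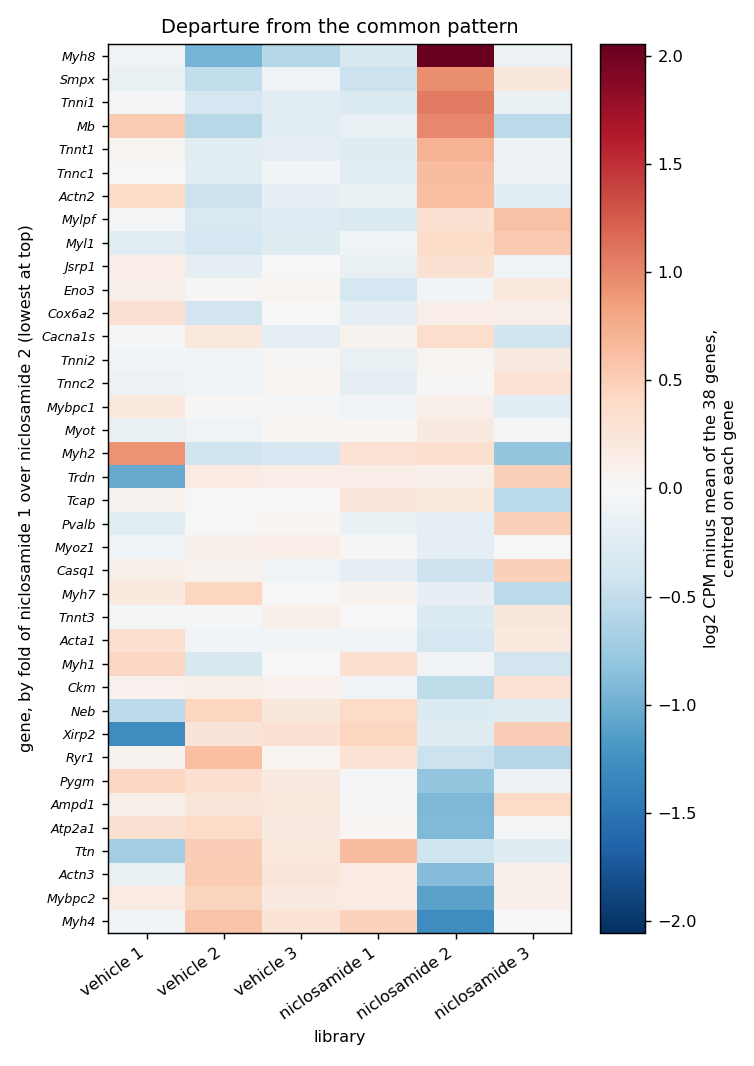
Departure of each skeletal muscle gene (vertical axis, ordered by its fold between niclosamide 1 and niclosamide 2, lowest at the top) from the mean of the 38 genes in each library (horizontal axis), as log2 CPM centred on each gene. *Myh8*, *Tnni1*, *Mb* and *Smpx* stand furthest above the pattern in niclosamide 2, and *Myh4* and *Mybpc2* furthest below it.

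Of the 17326 genes tested that were no members, 101 followed the members' mean at least as closely as the median member. The 10 closest, over 6 libraries and leaving out predicted and clone-named symbols, were *Tmem52* (SD of the log2 ratio 0.061), *Myom2* (0.10), a protein of the sarcomere's M band, *Srl* (0.13), a reticulum calcium-binding protein, *Abcb4*, *Lrrc30*, *Tmod4*, a tropomodulin of skeletal muscle, *Trim54*, *Hfe2* (hemojuvelin), *Myl2*, the slow and cardiac regulatory light chain, and *Tmem182*. *Tmem52* had only 0.34 to 12.2 CPM. Of 48 other striated muscle genes, 20 were among the 101. They also shared the extremes, with 46 highest in niclosamide 1 and 44 lowest in niclosamide 2, and 0 of 48 passed edgeR's test (0 of 17364 genes overall), with 44 log2 fold changes above 0 and a median of 0.52.

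Libraries of nearly equal muscle content still differed in which members were high. Summed member levels were 18886 and 19757 CPM in vehicle 2 and 3 and 19354 CPM in niclosamide 3. Yet 16 members were above both vehicle libraries in niclosamide 3, 15 were below both and 7 lay between. The ratio of niclosamide 3 to the mean of vehicle 2 and 3 ran from 0.508 for *Ryr1* to 1.81 for *Mylpf*, and *Ttn* was at 0.639 and *Neb* (nebulin) at 0.648. With 1 library on one side, this is a description.

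Medians of these departures differed with transcript length, a comparison chosen after the values were seen. The 4 members over 10 kilobases (*Neb*, *Ttn*, *Xirp2*, *Ryr1*) minus the 16 under 2 kilobases, as medians of the departure in log2 units, stood at -0.65, 0.69 and 0.27 with vehicle, against 0.58, -0.61 and -0.41 with niclosamide. Single long members went another way. In vehicle 1 *Ryr1* departed by 0.077, but *Neb*, *Ttn* and *Xirp2* by -0.54, -0.70 and -1.27. In niclosamide 3 *Xirp2* departed by 0.51, but *Neb*, *Ttn* and *Ryr1* by -0.25, -0.24 and -0.58. Among the genes tested that were no members, 758 long and 4582 short ones differed by -0.20, 0.25 and 0.10 and by 0.066, -0.16 and -0.062. The sign of this difference in the other genes was that of the members in all 6 libraries, and its size was smaller. The ratio of *Ttn* to *Acta1* CPM was 0.143, 0.438 and 0.354 with vehicle, against 0.478, 0.285 and 0.216 with niclosamide. The part of transcript length in the members' departures was not tested.

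Most genes that regulate muscle formation were highest where the members were highest. *Myod1*, which sets muscle fate, had 2.01, 2.39 and 3.61 CPM with vehicle, against 7.95, 0.49 and 4.88 CPM with niclosamide, and *Myf6*, the regulator of mature fibres, 7.58, 14.7 and 18.9 against 41.3, 1.98 and 19.6. *Pax7*, the marker of satellite cells, had at most 1.16 CPM. *Myog*, of differentiating myocytes, spanned a narrower range, with 3.79, 3.71 and 4.71 CPM with vehicle and 9.35, 2.63 and 7.12 with niclosamide. Of 9 transcription factor and cofactor genes tested, niclosamide 1 was the highest in 8, and 8 had a log2 fold change above 0. By edgeR 0 of the 9 were called (0 of 17364 genes overall). The whole list, which also held *Myh3*, the receptor subunit gene *Chrng*, the cadherin gene *Cdh15* and *Tmem8c*, had 13 genes tested, with 12 highest in niclosamide 1. *Chrng* is also in the list of denervation genes. Of 12 genes of atrophy and denervation, niclosamide 1 was the highest in 5 and niclosamide 2 the lowest in 6. Their median log2 fold change was -0.08 with 4 above 0, and edgeR called 0, as over all genes. *Trim63*, a muscle ubiquitin ligase gene, had 12.9, 31.3 and 26.0 CPM with vehicle and 76.1, 3.37 and 19.7 with niclosamide, whereas *Fbxo32*, also a muscle ubiquitin ligase gene, had 138, 167 and 220 against 188, 72.4 and 185.

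The 10 genes listed as heart markers summed to 51.2, 35.05 and 66.3 CPM with vehicle, against 134, 30.8 and 48.0 CPM with niclosamide. By edgeR, 0 of the 8 tested were called (0 of 17364 genes overall). *Nkx2-5*, a cardiac transcription factor gene, had 0 counts in all 6 libraries, and *Myl7*, the atrial light chain, had at most 0.95 CPM. Other genes of the list were detected in every library. *Myl4* had 13.2 to 32.4 CPM, *Tnnt2* 9.98 to 20.6, *Tnni3* 3.46 to 8.09 and *Nppa* 0.85 to 11.3. *Myh6*, the alpha heavy chain of heart, lies on chromosome 14 like its near-identical neighbour *Myh7*. It had 173, 3 and 376 counts with vehicle, against 2036, 9 and 1 with niclosamide. That is 6.31, 0.0824 and 11.8 CPM with vehicle and 69.2, 0.278 and 0.0311 CPM with niclosamide. Vehicle 2 and niclosamide 3 thus had at most 3 counts of *Myh6*, at or under the limit of 0.0824 and 0.0933 CPM that a count of 0 would allow there, although their member levels were close to that of vehicle 3. Of all genes tested, *Myh6* had the largest SD of log2 CPM over the libraries (3.88). Its log2 fold change was 1.93 ± 2.30 (SE; edgeR adjusted p = 0.96).

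Markers of other tissues moved with the muscle signal in different ways. The summed level of 10 uterine epithelium genes was 2058, 1310 and 1088 CPM with vehicle, against 386, 2413 and 847 CPM with niclosamide, so the library with the most muscle had the least epithelium and the one with the least muscle the most. *Epcam* had 53.0 CPM in niclosamide 1 and 338 in niclosamide 2. Of 12 smooth muscle genes, 11 had log2 fold changes below 0 (median -1.13). By edgeR 8 of them had an unadjusted p under 0.05, against 6.92% of all genes, and 0 were called, as over all genes. The 12 genes summed to 10006, 7235 and 9485 CPM with vehicle and 3668, 2415 and 6323 with niclosamide, an order of libraries unlike that of the skeletal muscle genes. Uterine stroma genes (7) summed to 930, 1385 and 1373 CPM with vehicle and 570, 888 and 1594 with niclosamide. *Des*, which both muscle kinds express, had 1286 CPM in niclosamide 1, while *Acta2*, the smooth muscle actin, had 445 there against 1758 to 2143 with vehicle.

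Adipocyte genes (10) shared the extremes but not the middle of the order. They summed to 492, 285 and 181 CPM with vehicle, against 1033, 120 and 162 CPM with niclosamide, so vehicle 1 had the most fat signal and the least muscle signal of its group. Niclosamide 1 had the highest value in all 10, and niclosamide 2 the lowest in 9. Mesothelial genes (8), of the lining of the abdominal wall, summed to 604, 239 and 244 CPM with vehicle and 209, 567 and 181 with niclosamide, with 0 highest in niclosamide 1. *Krt19*, which epithelial cells also express, made up much of this sum. The other 7 genes summed to 276, 94.8 and 145 CPM with vehicle and 149, 196 and 121 with niclosamide. Without *Krt19* the sums of all niclosamide libraries thus lay within the vehicle range. *Wt1* was the largest of these 7 in every library, with 83.4, 62.1 and 88.0 CPM with vehicle and 62.5, 62.6 and 91.8 with niclosamide, so these sums weigh it most. Niclosamide 3 was above the vehicle range in *Wt1* but below it in *Msln* (5.35 against 12.7 to 31.4 CPM), *Upk3b* and *Muc16*. In *Upk1b*, *Lrrn4* and *Gpm6a* it was within that range. The place of the niclosamide 3 sum within the vehicle range thus rested on *Wt1*. Schwann cell and nerve genes (8) summed to 197, 160 and 193 against 178, 154 and 183 CPM, a narrow range beside the muscle genes. No gene of these epithelial, smooth muscle, stromal, adipocyte, mesothelial and nerve lists was at 0 in all libraries. Of these genes 0 passed edgeR's adjusted threshold, against 0 of 17364 overall. The recipients behind niclosamide 1 and niclosamide 2 were also the heaviest (22.5 g) and the lightest (18.9 g) by the labels, the weight of vehicle 1 being a mean of 4 mice. The part of these tissues or of body weight in the muscle values was not tested.

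**Figure D5:**
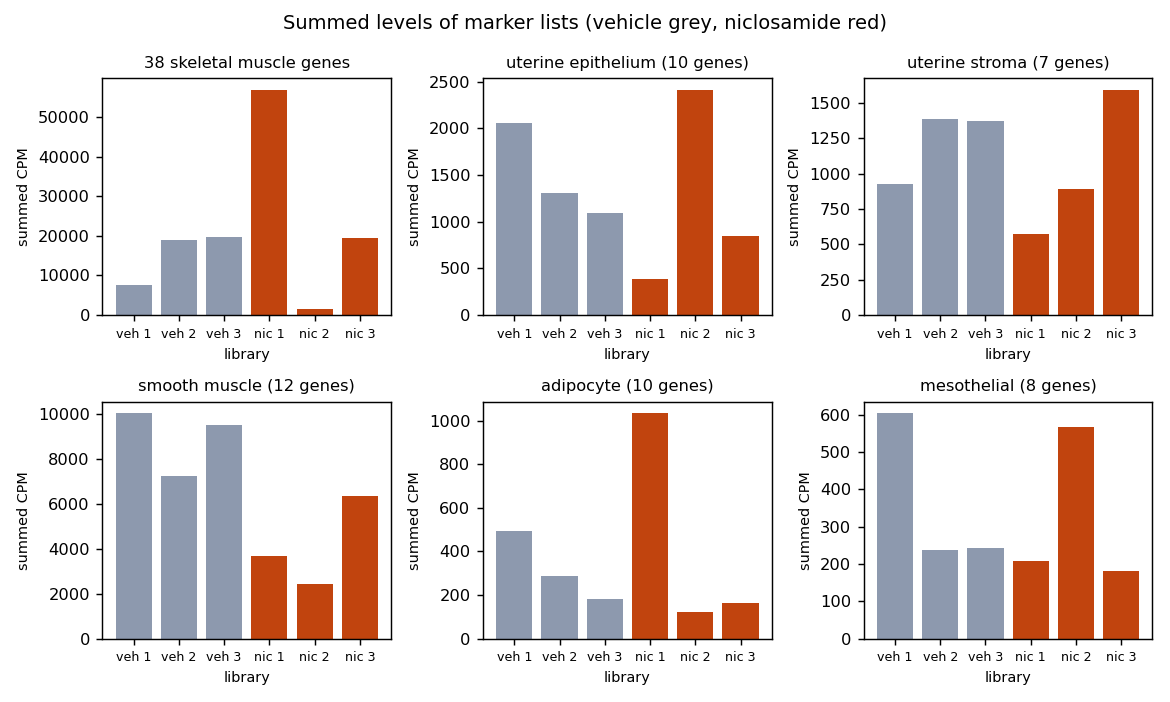
Summed CPM (vertical axes, each from 0) of the 38 skeletal muscle genes and of marker lists for 5 other tissues in each library (horizontal axes), vehicle in grey and niclosamide in red. Skeletal muscle and adipocyte sums peak in niclosamide 1 and are lowest in niclosamide 2, and the epithelial sum is highest in niclosamide 2 and lowest in niclosamide 1.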

How the data were processed

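The deposited values are raw counts. Per the file headers, featureCounts 1.4.6-p4 summed reverse-stranded reads on the exons of each symbol from STAR alignments, with an annotation of GRCm38.p3. Counting of multi-mapped reads was not switched on in the recorded command, so similar genes and genes annotated at 2 places may be undercounted. The submitters' processing notes also name Trimmomatic 0.33 and STAR 2.4.2a. Genes were filtered by filterByExpr (minimum count 10, minimum total 15), scaled by TMM and compared by edgeR 4.0.16's quasi-likelihood test over 17364 genes, with Benjamini-Hochberg adjustment and a threshold of 0.05. The SE was taken as the size of the log2 fold change divided by the root of the F statistic. Log2 CPM used a prior count of 2. Levels per kilobase used exon length on the chromosome. Alternatives were other scalings, scaling without the members, DESeq2 1.42.0, limma-voom (limma 3.58.1), other filters, a block on replicate number, and each library left out. Only the edgeR fit was tested on simulated data, in which the highest dispersions were capped.

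The members and lists were chosen with earlier results of these data known. Named were the 3 members per role with the highest level per kilobase, the slow and fast partners, the extremes of fold change and of departure from the common pattern, the 10 closest non-members, and up to 4 genes per other list with the highest CPM; other list genes, and the counts and sums over parts of a list, were picked after their values were seen. Labels do not say that replicates share a litter or day.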

Additional observations from a re-analysis of the deposited data

How the results depend on the processing

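No member passed the adjusted threshold under any alternative run, which were scaling by DESeq2's size factors (as RLE) or the upper quartile, scaling without the members, DESeq2, limma-voom, no filter, a CPM of at least 1 in 3 libraries, the replicate block and each library left out. The median log2 fold change of the members was 0.72 to 0.76 under the scalings, filters and DESeq2, where all 38 stayed above 0. DESeq2 called 195 genes over the whole table and the quasi-likelihood test without a filter 1, against 0. With niclosamide 1 and 2 both left out, chosen after seeing the data, 14 genes and 0 members were called. In limma-voom, which averages log2 values, the log2 fold change was -0.19 for *Myh1*, -0.25 for *Myh2*, -0.65 for *Myh4*, -0.56 for *Myh7*, -0.25 for *Mybpc1*, -0.66 for *Mybpc2*, -0.28 for *Acta1*, -0.16 for *Tnnt3*, -0.052 for *Tnni2*, -0.0028 for *Tnnc1*, -0.025 for *Tnnc2*, -0.52 for *Actn3*, -0.23 for *Myoz1*, -0.17 for *Tcap*, -0.011 for *Myot*, -0.71 for *Atp2a1*, -0.20 for *Casq1*, -0.31 for *Ckm* and -0.75 for *Pygm*. The deviations of same-numbered libraries from their group means had correlations of -0.085, -0.087 and 0.27 across genes. Those of libraries with different numbers ran from -0.36 to 0.36. With 3 libraries a group, these values cannot decide whether the numbers pair the samples. With the replicate block, the median was -0.13, 11 members were above 0, 0 genes were called as without it, and the log2 fold change was -0.30 for *Myh1*, -0.33 for *Myh2*, -0.51 for *Myh4*, -0.60 for *Myh7*, -0.28 for *Mybpc1*, -0.43 for *Mybpc2*, -0.15 for *Acta1*, -0.11 for *Tnnt3*, -0.035 for *Tnni2*, -0.00055 for *Tnnc1*, -0.013 for *Actn2*, -0.40 for *Actn3*, -0.23 for *Myoz1*, -0.35 for *Tcap*, -0.077 for *Myot*, -0.55 for *Atp2a1*, -0.17 for *Ckm*, -0.0197 for *Mb* and -0.63 for *Pygm*. The cause of the turn under the block was not tested. With each library left out in turn, the log2 fold change ran from -0.89 to 1.52 for *Myh1*, -1.17 to 1.44 for *Myh2*, -1.03 to 1.30 for *Myh4*, -1.31 to 1.02 for *Myh7*, -0.80 to 1.16 for *Mybpc1*, -0.84 to 1.15 for *Mybpc2*, -0.44 to 1.28 for *Acta1*, -0.43 to 1.24 for *Tnnt1*, -0.43 to 1.32 for *Tnnt3*, -0.30 to 1.28 for *Tnni1*, -0.38 to 1.26 for *Tnni2*, -0.49 to 1.204 for *Tnnc1*, -0.28 to 1.27 for *Tnnc2*, -0.54 to 1.30 for *Actn2*, -0.85 to 1.14 for *Actn3*, -0.67 to 1.24 for *Myoz1*, -1.05 to 1.37 for *Tcap*, -0.56 to 1.35 for *Myot*, -0.25 to 1.64 for *Xirp2*, -0.97 to 1.02 for *Atp2a1*, -0.17 to 1.29 for *Casq1*, -0.13 to 1.36 for *Pvalb*, -0.45 to 1.23 for *Ckm*, -0.70 to 1.25 for *Mb* and -1.05 to 0.96 for *Pygm*. Each lowest value of these came without niclosamide 1. *Myh8*, *Mylpf* and *Myl1* stayed above 0. The median over members ran from -0.52 to 1.28, and without niclosamide 2, 11 members had an unadjusted p under 0.05 against 10.1% of all genes in that fit (lowest adjusted p of a member by edgeR 0.322). The difference in summed share (0.928 percentage points) ran from -0.507 to 2.11, that in *Myh7* share (-0.0094 points) from -0.938 to 0.485, that in the slow minus fast mean (0.15 log2 units) from -0.20 to 0.35, and the median SD around the common pattern (0.37) from 0.25 to 0.39. Counting error was small beside the spread between libraries, and the number of libraries, 3 a group, limits these values.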
